A study of Mus musculus with 12 samples.

Results

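The titin and Z-disc genes followed here are 9 of the 22915 genes in the deposited table: Ttn, Ldb3, Tcap, Actn2, Nexn, Myoz2, Csrp3, Cmya5 and Fsd2. They were chosen by name, without a threshold on any value, but with earlier results of these data known. Counts of members set beside shares of all genes are therefore descriptive. The genes encode the giant protein titin, the proteins that hold it and actin at the Z-disc, and a pair of related proteins at the Z-disc edge. RNA was sequenced from primary cardiomyocytes of adult male C57/Bl6 mice aged 12 weeks, in 12 libraries of 4 conditions with 3 libraries each. All cells were cultured for 24 h under normoxia, without any genetic change, and received the carrier PBS or a recombinant cytokine, at 25 ng/mL per the labels, while the study's methods state a somewhat lower concentration. The cytokines were leukaemia inhibitory factor of the mouse (mLIF), oncostatin M of the mouse (mOSM), and a human-like form of the latter (hlOSM), which is the murine protein carrying the AB loop of human OSM. The sources used here do not state whether the 3 libraries of a condition came from separate preparations of cells, so the p-values below measure the spread between these libraries, which may be technical. Averaged over the conditions, the difference between replicates 3 and 1 hardly varied between the genes checked. For that reason p-values from fits without a term for the replicate number may be too small.

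The cytokines differ in the receptors they reach. LIF signals through the LIF receptor (LIFR) with gp130, murine OSM through the OSM receptor (OSMR) with gp130, and hlOSM was built to use both OSMR and LIFR on murine cells. The comparisons with PBS therefore ask what LIFR, OSMR or both do to these transcripts, and the comparisons between cytokines ask whether the routes differ.

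The Z-disc is the border between neighbouring sarcomeres, where actin filaments of opposite polarity are crosslinked by alpha-actinin and where the amino-terminal end of titin is anchored. Titin spans from there to the M-band and acts as a molecular spring and ruler. Z-disc proteins also serve as a docking site for signalling proteins, among them the phosphatase calcineurin. Inherited changes in many of these genes cause dilated or hypertrophic cardiomyopathy.

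All coordinates are those of the deposited table, which agree in both ends with a GENCODE annotation of the mm10 genome build for all 9 genes. Ttn lies on the minus strand of chromosome 2 from 76703980 to 76982547, and its exons cover 116825 bases in union. Ldb3 lies on chromosome 14 from 34526603 to 34588682, Tcap on chromosome 11 from 98383811 to 98384953, and Actn2 on chromosome 13 from 12269426 to 12340760. Nexn and Myoz2 are on chromosome 3, from 152236982 to 152266350 and from 123006206 to 123035015. Csrp3 and Fsd2 are on chromosome 7, from 48830398 to 48848033 and from 81533308 to 81566944, and Cmya5 is on chromosome 13 from 93040713 to 93144724. Tcap is on the plus strand and the other 8 genes are on the minus strand. Reads were summed over a whole gene, so isoforms of a gene, which are many for Ttn and Ldb3, cannot be told apart.

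Some exonic bases of 3 of the genes are shared with other annotated genes. In Cmya5 these are 21.7% of its exonic bases, on the opposite strand (Gm4814 and A630019I02Rik), and in Ttn 0.388%, also on the opposite strand (Gm13938). In Nexn 7.50% of the exonic bases are shared with Gm43185 on the same strand. The strand setting of the authors' counting is not given in the sources used here. Reads that overlapped more than 1 gene were left out of the counting per the study's methods, so such stretches may be missing from the counts of these genes.

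RefSeq promoter windows of build GRCm38.p6, the build that mm10 names, were matched for 7 of the 9 genes, in 9 windows. Tcap and Nexn were not matched. The 250 bases before the annotated start are shown for the genes that the results turn on. These are Ttn, which had the highest normalized count, and Ldb3 and Fsd2, which fell to the lowest share of their PBS level. Also shown are Csrp3, the member that rose, and Myoz2, the member called in no comparison with all 12 libraries. Each is written 5′ to 3′ on the strand of the gene, and capitals mark a match to one of the motifs named after them.
Ttn, chr2:76982548-76982797, minus strand: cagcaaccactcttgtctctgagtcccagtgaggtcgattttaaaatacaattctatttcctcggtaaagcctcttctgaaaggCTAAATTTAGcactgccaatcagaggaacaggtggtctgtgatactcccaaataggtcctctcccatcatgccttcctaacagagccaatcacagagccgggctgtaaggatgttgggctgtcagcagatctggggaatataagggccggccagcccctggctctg
Ldb3, chr14:34588682-34588931, minus strand: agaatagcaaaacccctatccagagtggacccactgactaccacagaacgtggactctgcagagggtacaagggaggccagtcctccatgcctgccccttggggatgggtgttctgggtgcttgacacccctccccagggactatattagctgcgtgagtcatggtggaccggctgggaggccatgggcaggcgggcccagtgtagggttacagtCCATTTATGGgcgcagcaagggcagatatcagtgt
Fsd2, chr7:81566982-81567231, minus strand: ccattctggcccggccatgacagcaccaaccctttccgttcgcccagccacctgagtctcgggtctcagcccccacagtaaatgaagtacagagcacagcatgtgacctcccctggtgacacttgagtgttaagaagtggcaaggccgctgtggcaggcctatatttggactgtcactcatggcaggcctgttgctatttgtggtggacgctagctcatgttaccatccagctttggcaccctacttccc
Csrp3, chr7:48848052-48848301, minus strand: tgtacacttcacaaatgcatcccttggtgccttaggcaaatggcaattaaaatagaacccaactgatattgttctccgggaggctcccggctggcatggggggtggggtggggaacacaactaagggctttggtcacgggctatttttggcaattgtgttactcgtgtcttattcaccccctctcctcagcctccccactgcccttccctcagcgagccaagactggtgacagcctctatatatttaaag
Myoz2, chr3:123034988-123035237, minus strand: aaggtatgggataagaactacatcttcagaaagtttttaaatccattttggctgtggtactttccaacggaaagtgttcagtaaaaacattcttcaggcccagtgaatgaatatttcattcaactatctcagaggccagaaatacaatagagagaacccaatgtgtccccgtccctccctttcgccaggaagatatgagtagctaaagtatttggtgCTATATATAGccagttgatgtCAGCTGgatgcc

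The windows were searched on both strands for the STAT motif TTCNNNGAA, the GATA motif AGATAA, the M-CAT motif CATTCC, the TATA box TATAAA, the E-box CAGCTG, the CArG box and the MEF2 box. A MEF2 match stood 166 to 157 bases before the start of Ttn and 33 to 24 bases before that of Myoz2, and MEF2 matches were present in 2.92% of all 32851 RefSeq promoter windows of the same length. Myoz2 also held an E-box 12 to 7 bases before its start, a motif found in 13.0% of windows. The Ldb3 window held a CArG box 35 to 26 bases before the start, against 1.47% of all windows. Cmya5 held a GATA match on the opposite strand, 167 to 162 bases before its start (9.99% of all windows). Neither the Fsd2 window nor those of Csrp3 and Actn2 held any of the 7 motifs. The STAT, M-CAT and TATA motifs, present in 7.02%, 12.6% and 12.4% of all windows, were in none of the 9 windows. These are matches of letters and not measured binding sites.

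The deposited values are normalized counts that sum to 2745748 to 2911891 per library. Of the 22915 genes, 13184 reached a normalized count of 10 in at least 3 libraries and were tested, and all 9 members were among them. The identity of the cells was checked against marker lists. The sum of 10 cardiomyocyte markers ran from 19653 to 21643 in the PBS libraries, that of 8 fibroblast markers from 2296 to 2526, that of 8 endothelial markers from 1188 to 1262, that of 7 smooth muscle and pericyte markers from 956 to 1201, and that of 8 leukocyte markers from 308 to 321. The leukocyte list was drawn up with 9 markers, of which Cd3e was not in the deposited table. Of the other leukocyte markers, C1qa, C1qb and Cd79a were too low to be tested. No marker in the table was at 0 in all libraries, so transcripts of non-muscle cells were present beside those of cardiomyocytes.

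Ttn was the gene with the highest normalized count in each of the 12 libraries. It had 32687, 32934 and 33150 normalized counts in the PBS libraries, 29187, 27991 and 29003 in the mLIF libraries, 23070, 21576 and 24076 in those given mOSM, and 22374, 24446 and 23871 in those given hlOSM. Every cytokine library lay below every PBS library, and every mOSM and hlOSM library lay below every mLIF library, while mOSM and hlOSM overlapped. Ttn alone held 1.15% ± 0.0165 (SD, n = 3) of the library total with PBS, 1.02% ± 0.0185 with mLIF, 0.814% ± 0.0286 under mOSM and 0.841% ± 0.0351 under hlOSM. The 9 members together held 1.498% ± 0.0116 of the total with PBS, 1.32% ± 0.0228 with mLIF, 1.09% ± 0.0385 with mOSM and 1.10% ± 0.0453 with hlOSM. These are bulk measurements, in which fewer cardiomyocytes and less of a transcript per cardiomyocyte cannot be told apart.

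Normalized counts grow with the length of a transcript, so levels of different genes were compared per kilobase of exon. With PBS the highest level per kilobase was that of Actn2, at 429 ± 27.2 (SD, n = 3), followed by Nexn at 396 ± 9.84, Cmya5 at 303 ± 8.47 and Ttn at 282 ± 1.98. Actn2 and Nexn differed by little more than the SD of Actn2, whereas Nexn, Cmya5 and Ttn were separated by more than their SDs. Tcap followed at 237 ± 35.7 per kilobase, and Fsd2, Ldb3 and Myoz2 at 197 ± 16.2, 194 ± 15.6 and 192 ± 10.1 could not be ordered within their spread. Csrp3 was lowest, at 147 ± 2.08. With hlOSM the first 4 places were the same, and below them Myoz2 (182 ± 4.91 per kilobase) and Csrp3 (172 ± 5.46) stood above Tcap (123 ± 10.1), Ldb3 (95.1 ± 4.46) and Fsd2 (94.4 ± 11.0). Within their spread, Ldb3 and Fsd2 could not be ordered there, nor Myoz2 and Csrp3. Per kilobase of exon, Csrp3 thus stood below Fsd2 and Ldb3 with PBS and above both with hlOSM. The order depends on the length used: per kilobase of coding sequence Myoz2 stood first with PBS (793 ± 41.9) and Ttn last (294 ± 2.07). By coding length Csrp3, at a mean of 675 with PBS, was already above Ldb3 (473) and Fsd2 (366). It was above both with hlOSM too, so its change of place was seen by exon length only.

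**Figure D1:**
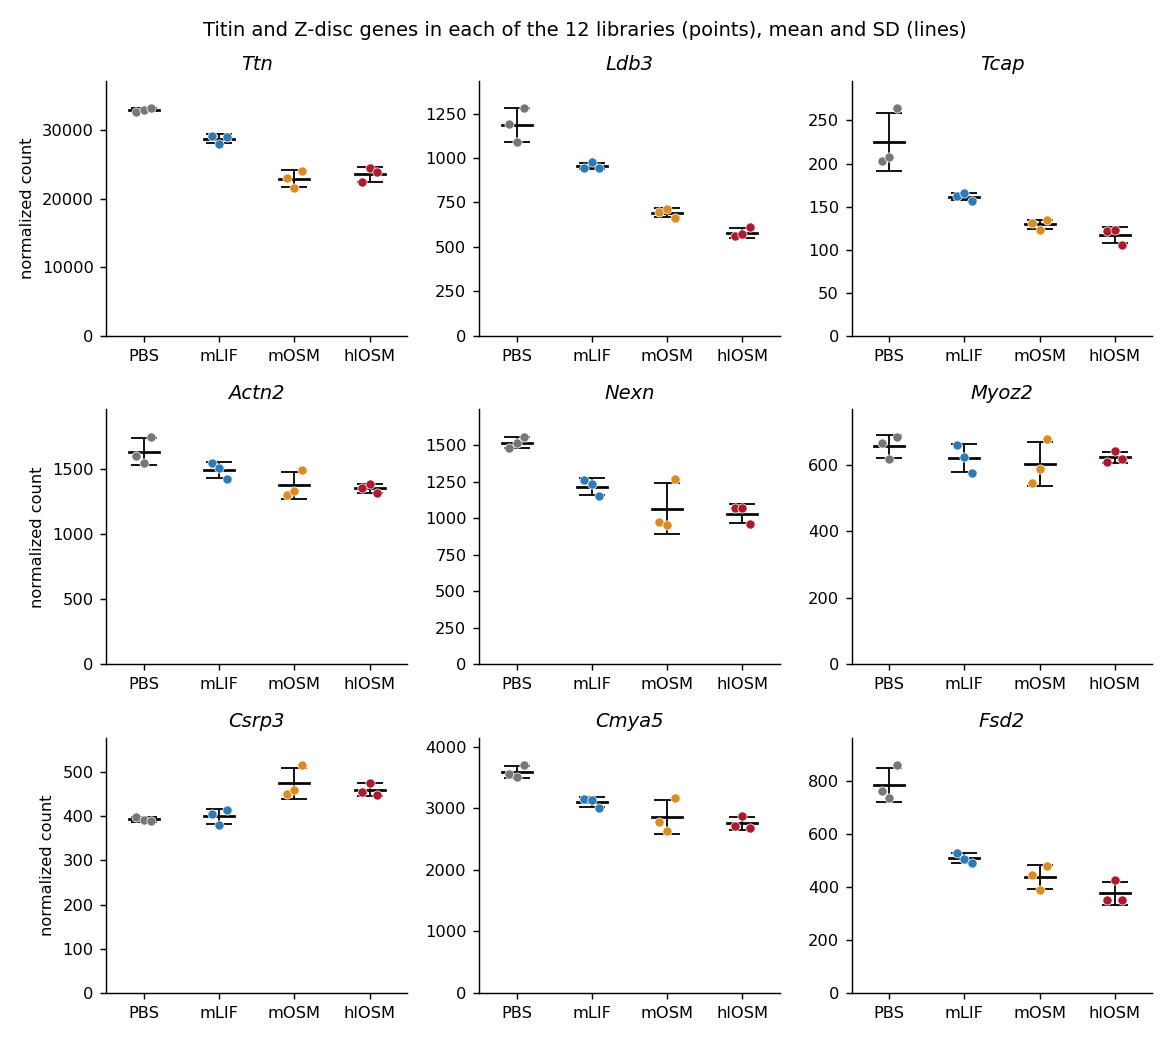
Normalized count (vertical axes, from 0) of the 9 genes in the 3 libraries of each condition (points), with the mean and SD (lines). The Ttn libraries step down from 32687 to 33150 with PBS to between 21576 and 24446 with mOSM and hlOSM, Csrp3 steps up from 388 to 399 with PBS to between 448 and 515, and the Myoz2 libraries overlap across all conditions.

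With mLIF, which acts through LIFR, 6 of the 9 members were lower than with PBS and none was higher. Over all genes tested, 4.44% were called lower and 5.47% higher in the same comparison. A gene was called where the Benjamini-Hochberg adjusted p from limma, over all 13184 genes, was under 0.05, and log2 fold changes are on the scale of log2(normalized count + 1). The lower genes were Fsd2, Tcap, Nexn, Ldb3, Cmya5 and Ttn, and those not called were Actn2, Myoz2 and Csrp3. The median log2 fold change was -0.21 over the 9 members and 0.0004 over all genes tested. In the same 6 genes the mLIF and PBS libraries did not overlap, which was the case for 30.3% of all genes tested. The count rests in part on 1 library: without mLIF replicate 3, the lowest of its group in 6 of the 9 genes, 3 members were called lower.

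With mOSM, which acts through OSMR, 7 members were lower than with PBS and 1, Csrp3, was higher, against backgrounds of 15.8% of genes called lower and 15.4% called higher. The median log2 fold change was -0.52 over the members and -0.0043 over all genes. With hlOSM, which reaches both receptors, the same numbers of members were called, 7 lower and 1 higher, against 19.8% and 18.2% of all genes. The median was -0.48 over the members and -0.0052 over all genes. For each oncostatin, the libraries of 8 members did not overlap with those of PBS, compared with 40.1% of genes for mOSM and 47.0% for hlOSM. Myoz2 was the member not called in either comparison. All 3 comparisons share the PBS libraries, so their values for a gene are given side by side and are not independent of each other. In the PBS group, replicate 3 was the highest library in 8 of the 9 genes, and in the mOSM group replicate 3 was the highest in 8. In the hlOSM group, replicate 2 was the highest in 8 and replicate 3 the lowest in 6.

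**Figure D2:**
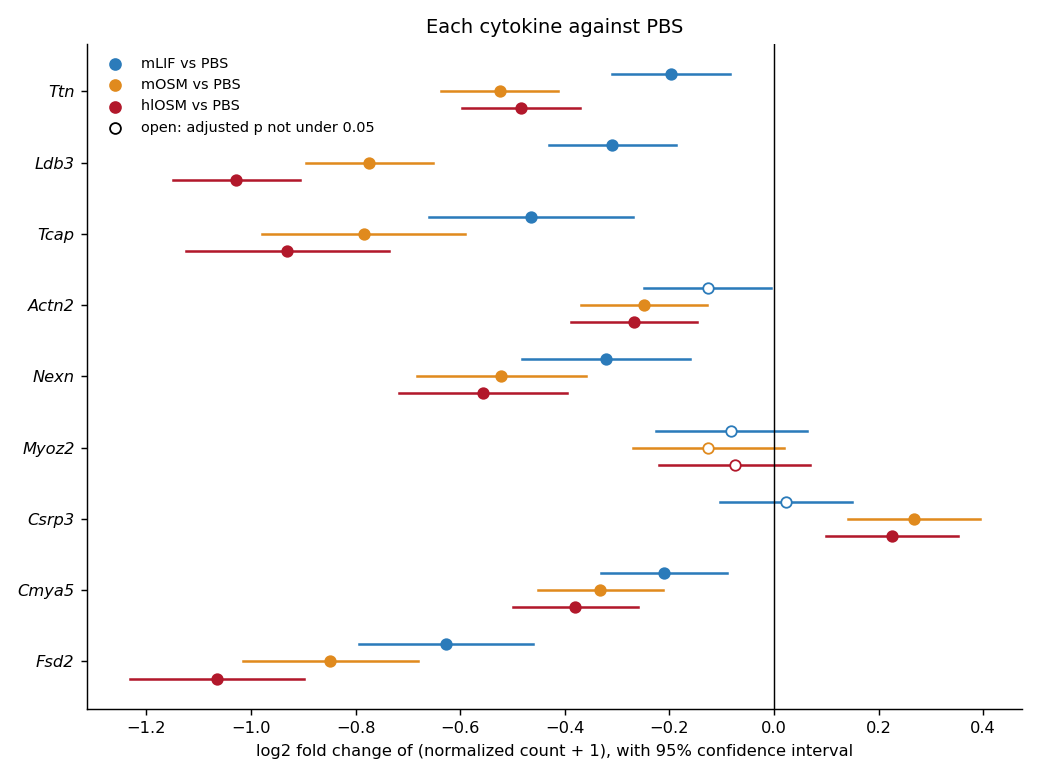
Log2 fold change of (normalized count + 1) against PBS (horizontal axis) for each of the 9 genes, with the 95% confidence interval from limma, for mLIF (blue), mOSM (orange) and hlOSM (red). Filled points have an adjusted p under 0.05. Fsd2, Ldb3 and Tcap lie farthest to the left, with hlOSM values of -1.07, -1.03 and -0.93, and Csrp3 is the gene to the right of 0 with mOSM (0.27) and hlOSM (0.23).

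Ttn was 87.2% of its PBS level with mLIF, a log2 fold change of -0.20 ± 0.054 (SE; adjusted p = 0.0234). The change was -0.52 ± 0.054 with mOSM (adjusted p = 1.3e-07) and -0.48 ± 0.054 with hlOSM (adjusted p = 3.03e-07), which are 69.5% and 71.5% of the PBS level. Of all genes tested, 8.66% had a lower log2 fold change than Ttn with mOSM and 11.4% with hlOSM. The mLIF call was lost on leaving out any of the PBS libraries or mLIF replicate 2 or 3, with adjusted p between 0.064 and 0.114 and log2 fold changes from -0.20 to -0.18. Quantile rescaling, which gives the top gene of every library the same value, sets all Ttn differences to 0 by construction.

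Ldb3 encodes Cypher, also called ZASP, a PDZ and LIM domain protein that binds alpha-actinin at the Z-disc. Its normalized counts were 1190, 1089 and 1279 with PBS, 943, 976 and 946 in the mLIF libraries, 698, 713 and 665 in those given mOSM, and 559, 571 and 611 in those given hlOSM. The 4 conditions formed 4 separate ranges in this order, with no overlap between any of them. Against PBS the log2 fold change was -0.31 ± 0.058 with mLIF (adjusted p = 0.00191), -0.77 ± 0.058 with mOSM (adjusted p = 1.33e-09) and -1.03 ± 0.058 with hlOSM (adjusted p = 8.14e-12). With hlOSM the transcript was at 49.0% of the PBS level. These 3 calls held in every refit tried, at a threshold of 0.05.

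Tcap encodes telethonin, which caps the amino-terminal ends of paired titin molecules. Its normalized counts, not divided by length, were the lowest of the 9 members in every condition. They were 203, 208 and 264 with PBS, and 162, 166 and 157 in the mLIF libraries. In the libraries given mOSM they were 131, 123 and 134, and in those given hlOSM 122, 123 and 106. The PBS libraries were above all others, the mLIF libraries were above all oncostatin libraries, and the libraries of mOSM and hlOSM met at 123. The changes against PBS were -0.46 ± 0.094 with mLIF (adjusted p = 0.00306), -0.78 ± 0.094 with mOSM (adjusted p = 1.01e-06) and -0.93 ± 0.094 with hlOSM (adjusted p = 6.7e-08). Its PBS group had a coefficient of variation of 15.1%, the highest of the 9 members in that condition.

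Actn2 encodes the sarcomeric alpha-actinin that crosslinks actin at the Z-disc. It had 1595, 1546 and 1744 normalized counts with PBS, 1547, 1503 and 1420 in the mLIF libraries, 1296, 1329 and 1489 in those given mOSM, and 1352, 1383 and 1316 in those given hlOSM. The mLIF libraries overlapped those of PBS by a single count, whereas all oncostatin libraries were below PBS. The changes were small: -0.13 ± 0.058 with mLIF (adjusted p = 0.172), -0.25 ± 0.058 with mOSM (adjusted p = 0.00222) and -0.27 ± 0.058 with hlOSM (adjusted p = 0.00091), the last being 83.0% of PBS.

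Nexn encodes nexilin, an actin-binding protein of the Z-disc. The libraries held 1481, 1513 and 1556 normalized counts with PBS, 1259, 1236 and 1149 in the mLIF libraries, 972, 956 and 1268 in those given mOSM, and 1068, 1069 and 958 in those given hlOSM. All cytokine libraries were below PBS, but mOSM replicate 3, at 1268, stood above every mLIF library while the other 2 mOSM libraries stood below them. The change was -0.32 ± 0.078 with mLIF (adjusted p = 0.0111), -0.52 ± 0.078 with mOSM (adjusted p = 1.83e-05) and -0.56 ± 0.078 with hlOSM (adjusted p = 5.86e-06). The mLIF call was lost without mLIF replicate 3 (log2 fold change -0.28, adjusted p = 0.0748).

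Myoz2 encodes calsarcin-1 (myozenin-2), which binds alpha-actinin and calcineurin at the Z-disc. It was measured at 666, 617 and 684 normalized counts with PBS, 660, 623 and 576 in the mLIF libraries, 546, 586 and 676 in those given mOSM, and 609, 641 and 616 in those given hlOSM. All conditions overlapped. The differences from PBS were -0.08 with mLIF (95% confidence interval -0.23 to 0.06, adjusted p = 0.488), -0.13 with mOSM (-0.27 to 0.02, adjusted p = 0.18) and -0.07 with hlOSM (-0.22 to 0.07, adjusted p = 0.422). The intervals thus leave room for a fall of up to 0.27 on the log2 scale. Without mOSM replicate 3 the mOSM comparison passed the threshold, with a log2 fold change of -0.21 and adjusted p = 0.0148.

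Csrp3 encodes muscle LIM protein, a Z-disc protein linked to stretch sensing. Its libraries held 399, 392 and 388 normalized counts with PBS, 404, 381 and 413 in the mLIF libraries, 449, 458 and 515 in those given mOSM, and 455, 476 and 448 in those given hlOSM. Every oncostatin library was above every PBS and every mLIF library, and mLIF and PBS overlapped. The log2 fold change was 0.02 ± 0.061 with mLIF (adjusted p = 0.857), 0.27 ± 0.061 with mOSM (adjusted p = 0.00179) and 0.23 ± 0.061 with hlOSM (adjusted p = 0.00567). These rises correspond to 120% and 117% of the PBS level, and Csrp3 was the only one of the 9 genes called higher in any comparison.

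Cmya5 and Fsd2 encode myospryn and minispryn, related proteins with fibronectin type III and SPRY domains that lie at the Z-disc edge and the junction of the sarcoplasmic reticulum with the T-tubules. Cmya5 had 3551, 3509 and 3700 normalized counts with PBS, 3157, 3138 and 3006 in the mLIF libraries, 2771, 2629 and 3172 in those given mOSM, and 2714, 2875 and 2681 in those given hlOSM. All cytokine libraries were below PBS, and mOSM replicate 3 was again above the mLIF libraries. The log2 fold change of Cmya5 was -0.21 ± 0.058 with mLIF (adjusted p = 0.0234), -0.33 ± 0.058 with mOSM (adjusted p = 0.000118) and -0.38 ± 0.058 with hlOSM (adjusted p = 1.84e-05). Its mLIF call was lost without PBS replicate 3 (adjusted p = 0.11), mLIF replicate 2 (0.0592) or mLIF replicate 3 (0.117). Under quantile rescaling Cmya5 was not called with mLIF (0.0028, adjusted p = 0.972) or with mOSM (-0.08, adjusted p = 0.112). That rescaling sets each value by its rank in the library, so a change that leaves the rank in place cannot show. Cmya5 ranked 14 to 16 in the libraries of both PBS and mLIF, and 16 to 22 in those of mOSM.

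Fsd2 changed more. It fell from 763, 738 and 860 normalized counts with PBS to 528, 506 and 491 in the mLIF libraries, 444, 390 and 478 in those given mOSM, and 352, 427 and 350 in those given hlOSM. Every cytokine library was below every PBS library, every oncostatin library was below every mLIF library, and mOSM and hlOSM overlapped. The log2 fold change was -0.63 ± 0.08 with mLIF (adjusted p = 5.47e-05), -0.85 ± 0.08 with mOSM (adjusted p = 3.62e-08) and -1.07 ± 0.08 with hlOSM (adjusted p = 7.31e-10), or 64.7%, 55.6% and 47.8% of the PBS level. With mLIF, 2.03% of all genes tested had a lower log2 fold change than Fsd2.

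The cytokines were then compared with each other at the same dose and time. Against mLIF, mOSM gave lower levels of 3 members (Ttn, Ldb3 and Tcap) and a higher level of Csrp3, where 5.76% of all genes were called lower and 6.05% higher. Ttn with mOSM was 79.7% of its mLIF level (log2 fold change -0.33 ± 0.054, adjusted p = 0.000185), and Ldb3 was 72.5% (-0.46 ± 0.058, adjusted p = 6.53e-06). Tcap differed by -0.32 ± 0.094 (adjusted p = 0.0266), and this call was lost on leaving out any mLIF library or mOSM replicate 1 or 2, with adjusted p from 0.0507 to 0.1, and with the replicate block (adjusted p = 0.0584). The Csrp3 difference was 0.24 ± 0.061 (adjusted p = 0.00871), and without mLIF replicate 2 its adjusted p was 0.0684. A single library weighed on this comparison: without mOSM replicate 3, 7 members were called lower, with Actn2 (adjusted p = 0.0312), Nexn (0.000353), Cmya5 (0.00485) and Fsd2 (0.0319) added. Without hlOSM replicate 2, a library of neither group, Fsd2 was also called (adjusted p = 0.0478), since all 12 libraries share an estimate of the spread.

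Against mLIF, hlOSM gave lower levels of 6 members and a higher level of Csrp3, where 9.22% of all genes were called lower and 7.42% higher. Ldb3 with hlOSM was 60.8% of its mLIF level (log2 fold change -0.72 ± 0.058, adjusted p = 9.23e-09). Fsd2 was 73.8% (-0.44 ± 0.08, adjusted p = 0.000434), Tcap 72.4% (-0.47 ± 0.094, adjusted p = 0.00115) and Ttn 82.0% (-0.29 ± 0.054, adjusted p = 0.000598). These 4 genes carried the comparison. The calls of Nexn (-0.24, adjusted p = 0.0391), Cmya5 (-0.17, adjusted p = 0.0471) and Csrp3 (0.20, adjusted p = 0.0242) were close to the threshold. With the replicate block their adjusted p-values were 0.0504, 0.0669 and 0.0542, so that 4 members were called lower and 0 higher. The call of Nexn was lost without mLIF replicate 1 or 2 or any hlOSM library (adjusted p 0.0512 to 0.163), and that of Csrp3 without mLIF replicate 1 or 2 or hlOSM replicate 1 or 2 (0.053 to 0.133). The call of Cmya5 was lost without any PBS or mLIF library, hlOSM replicate 1 or 3 or mOSM replicate 1 (0.0501 to 0.148). The calls of Nexn and Cmya5 were also lost without the filter on low values (adjusted p = 0.0623 and 0.0764) and after trimmed-mean rescaling (0.063 and 0.0657). Actn2 differed by -0.14 and was not called (95% confidence interval -0.26 to -0.02, adjusted p = 0.106), but was called without mOSM replicate 3 (adjusted p = 0.0428).

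No member was called between hlOSM and mOSM, a comparison in which 0.106% of all genes were called in either direction by limma. An unadjusted p under 0.05 was found for 2 members, Ldb3 and Fsd2, and the share of all genes at that unadjusted threshold was not computed. Ldb3 with hlOSM was 83.9% of its mOSM level, with 3 of 3 hlOSM libraries below all mOSM libraries (log2 fold change -0.25, 95% confidence interval -0.38 to -0.13, adjusted p = 0.116). Fsd2 differed by -0.22 (-0.38 to -0.05, adjusted p = 0.493) and its libraries overlapped. For Ttn the difference was 0.04, with an interval from -0.07 to 0.15, and for Csrp3 -0.04, from -0.17 to 0.08. The intervals of the other 5 genes, Tcap, Actn2, Nexn, Myoz2 and Cmya5, also included 0. With -0.34 to 0.05, that of Tcap was the widest.

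**Figure D3:**
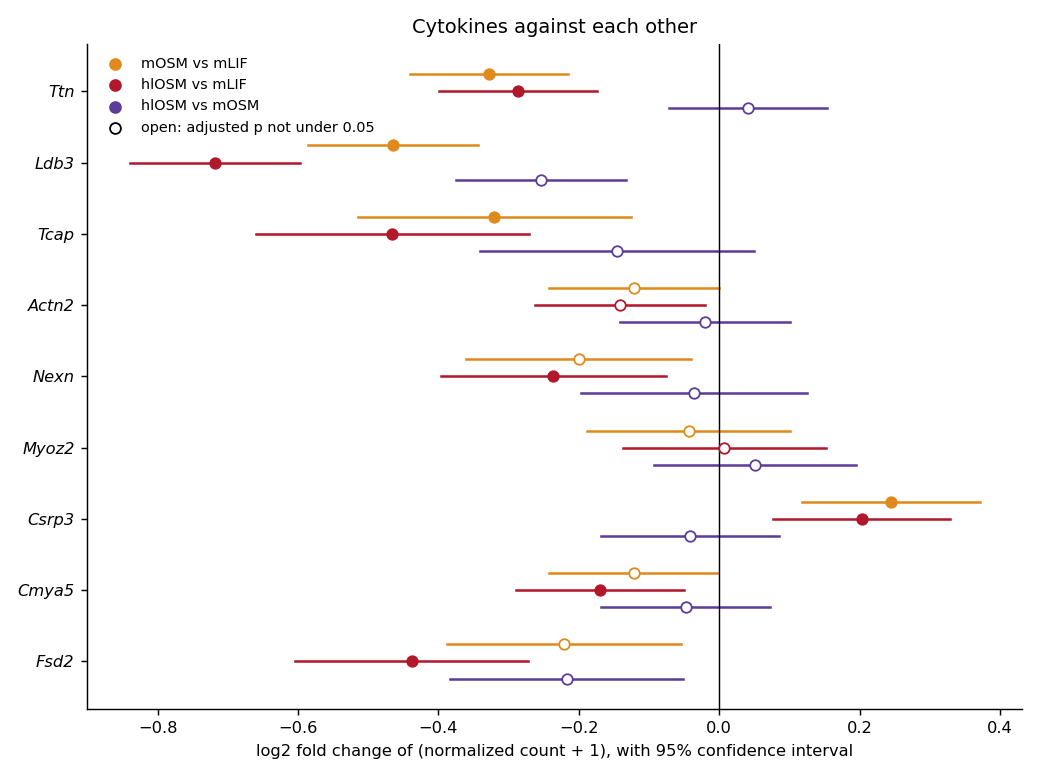
Log2 fold change of (normalized count + 1) between cytokines (horizontal axis) for each of the 9 genes, with the 95% confidence interval from limma, for mOSM against mLIF (orange), hlOSM against mLIF (red) and hlOSM against mOSM (purple). Filled points have an adjusted p under 0.05. No purple point is filled, and the purple intervals of Ldb3 (-0.38 to -0.13) and Fsd2 (-0.38 to -0.05) are those that do not include 0.

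The design also allows a test of whether the step from mOSM to hlOSM, which adds LIFR to OSMR, equals the step from PBS to mLIF, which adds LIFR alone. The step to hlOSM also replaces mOSM by another protein, and whether both act equally on OSMR was not tested. The difference of the steps was tested as an interaction in the same limma fit. No member was called, where 0.167% of all genes were called in either direction. The unadjusted p was under 0.05 for 4 members, Fsd2, Ttn, Nexn and Tcap. The share of all genes at that unadjusted threshold was not computed, so this count has no background beside it. For Fsd2 the fall from mOSM to hlOSM was smaller than that from PBS to mLIF by 0.41 on the log2 scale (95% confidence interval 0.17 to 0.65, adjusted p = 0.145). The interaction was 0.24 for Ttn (0.08 to 0.40, adjusted p = 0.211), 0.29 for Nexn (0.06 to 0.51, adjusted p = 0.311) and 0.32 for Tcap (0.04 to 0.59, adjusted p = 0.355). For Ldb3 it was 0.06 (-0.12 to 0.23, adjusted p = 0.841). Without mOSM replicate 3, the interaction passed for 2 members, Ttn (0.27, adjusted p = 0.0459) and Nexn (0.42, adjusted p = 0.0173).

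The unequal changes were also seen within single libraries, as the ratio of each gene to Actn2, the crosslinker of the Z-disc, which does not depend on how a library was scaled. The reference gene was chosen after its values were seen, and it fell itself with both oncostatins, so the ratio shows unequal change only. Ttn was 20.3 ± 1.16 times Actn2 (mean ± SD, n = 3) with PBS, 19.3 ± 0.977 with mLIF, 16.7 ± 0.924 with mOSM and 17.5 ± 0.818 with hlOSM. Ldb3 was 0.728 ± 0.0214 of Actn2 with PBS and 0.43 ± 0.0295 with hlOSM, and Fsd2 was 0.483 ± 0.00882 with PBS and 0.278 ± 0.0265 with hlOSM. The libraries with hlOSM did not overlap with PBS for either gene. Csrp3 went the other way, from 0.242 ± 0.017 with PBS to 0.346 ± 0.000935 with mOSM and 0.34 ± 0.00382 with hlOSM. Myoz2 rose relative to Actn2, from 0.403 ± 0.0131 to 0.461 ± 0.00915 with hlOSM, while the Cmya5 ratio was 0.944 times that of PBS under both mLIF and mOSM, and 0.925 times under hlOSM. Its libraries with mLIF and with hlOSM did not overlap those with PBS, and those with mOSM did.

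**Figure D4:**
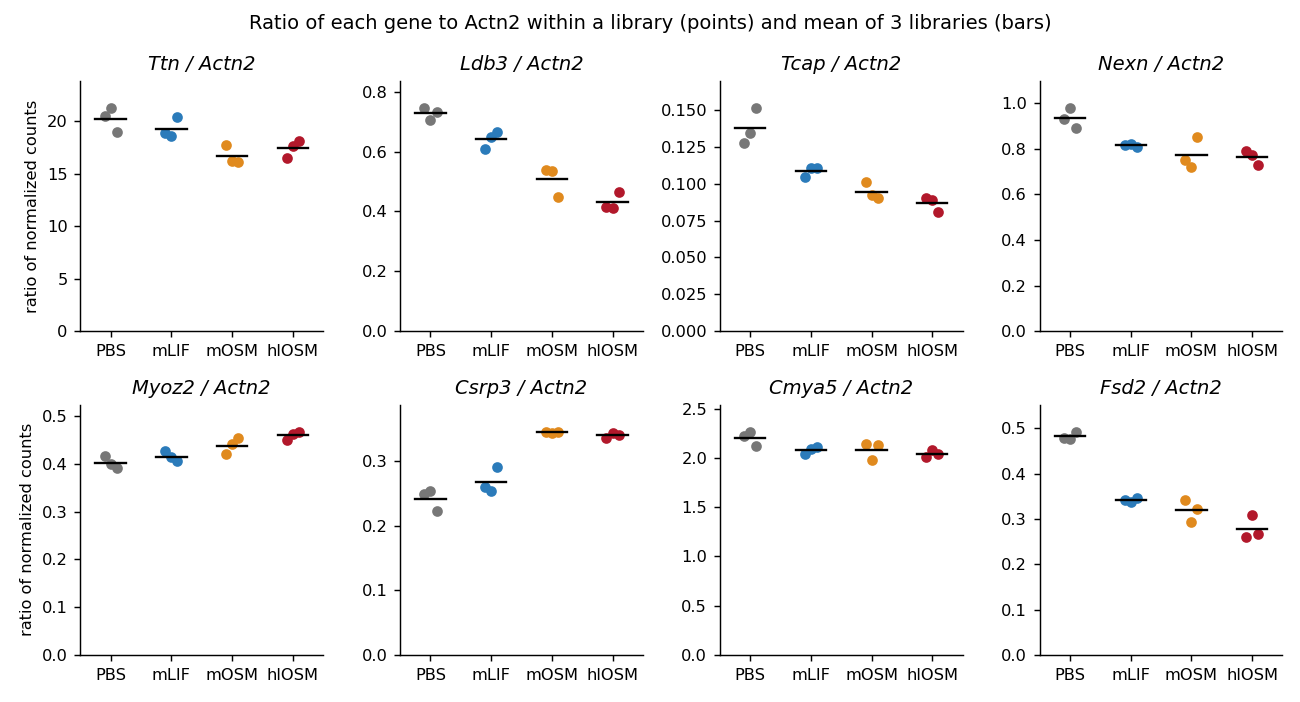
Ratio of normalized counts of 8 genes to Actn2 in the same library (vertical axes, from 0), with 1 point for each of the 3 libraries of a condition and bars at the mean. The Ldb3 ratio falls from 0.728 with PBS to 0.43 with hlOSM, and that of Csrp3 rises from 0.242 to 0.34.

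Across the 12 libraries, 7 members followed one another: the pairwise Pearson r of log2 values among Ttn, Ldb3, Tcap, Actn2, Nexn, Cmya5 and Fsd2 ran from 0.83 for Ldb3 with Nexn to 0.98 for Nexn with Cmya5. Csrp3 ran against them, with r from -0.85 with Ldb3 to -0.59 with Nexn, and its r with Myoz2 was -0.11. The r of Myoz2 was highest with Actn2, at 0.76. The libraries are grouped by condition, so these values describe the common response to the 4 conditions and not a relation within any of them. Of 6617 genes averaging 100 normalized counts or more, those most like Ttn were Zbtb20 (r = 0.99), Vldlr (0.98), Aox1 (0.98), Dmd (0.98) and Mef2c (0.97). The closest to the mean profile of the members were Mybpc3 (0.99), Pde4dip (0.99), Ndufs1 (0.99), Dcaf6 (0.99) and Thra (0.98).

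The members were set beside lists of other genes of the same structures. Of 24 other Z-disc genes, 22 were tested. The cells given mLIF had 4 of them lower and 2 higher, those given mOSM 10 lower and 3 higher, and those given hlOSM 9 lower and 3 higher. Over all genes tested, the shares called lower and higher were 4.44% and 5.47% with mLIF, 15.8% and 15.4% under mOSM, and 19.8% and 18.2% under hlOSM. The 4 lower calls under mLIF fell to 1 without PBS replicate 3 or mLIF replicate 3, and the 2 higher calls to 1 without any PBS library or mLIF replicate 3 and with the replicate block. Their medians were -0.08, -0.12 and -0.08 on the log2 scale, nearer to 0 than those of the 9 members in each comparison. Nebl, which encodes the nebulin-like protein nebulette, fell by 0.46 under mLIF, 0.66 under mOSM and 0.84 under hlOSM, and Synpo2, Fhl2 and Palld were also lower with all 3 cytokines. Myoz1, a relative of Myoz2 at a mean of only 22.2 normalized counts, was lower with mOSM (-0.59) and hlOSM (-1.09). Csrp1, a relative of Csrp3 at a mean of 51.8, was lower with mOSM (-0.66) and hlOSM (-0.63). Rises were seen for Pdlim1 (0.56 with mLIF, 0.84 with mOSM and 1.03 with hlOSM), for Pdlim7 (0.39, 0.59 and 0.63), both PDZ and LIM domain proteins like Ldb3, and for Flnc, filamin C, with mOSM (0.16) and hlOSM (0.14).

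Of 20 titin-associated genes and regulators of titin splicing, 17 were tested. Under mLIF 4 were lower and 2 higher, under mOSM 7 and 2, and under hlOSM 8 and 2, with medians of -0.13, -0.12 and -0.13. Over all genes tested, 4.44%, 15.8% and 19.8% were called lower under mLIF, mOSM and hlOSM, and 5.47% were called higher under mLIF. The 2 higher of 17 genes are a smaller share than the 15.4% and 18.2% of all genes called higher under mOSM and hlOSM. The 4 lower calls under mLIF became 2 without PBS replicate 3 or mLIF replicate 3 and 7 without mOSM replicate 3, and the 2 higher calls became 1 with the replicate block, without PBS replicate 2 or 3, or without any mLIF library. Rbm20, the splicing factor that controls which titin exons are kept, was lower with mLIF (-0.37), mOSM (-0.72) and hlOSM (-0.87). Mybpc3, the cardiac myosin-binding protein C (-0.28, -0.41 and -0.50), and Trim55, a titin-kinase associated ubiquitin ligase (-0.25, -0.32 and -0.43), were lower with all 3 as well. Obsl1 and Myom2, M-band proteins, were lower with both oncostatins. The 2 genes that rose were Fhl1 (0.52, 0.41 and 0.50), a LIM protein that binds the titin spring, and Cryab (0.23, 0.28 and 0.39), the small heat shock protein alpha B-crystallin.

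Cmya5 and Fsd2 lie near the junction of the T-tubule with the sarcoplasmic reticulum, and 11 of 12 other genes listed with that junction were tested. The list is broad and also holds genes such as Dmd, Dtnbp1 and Fsd1, whose proteins are not confined to that junction. With mLIF 5 were lower, with mOSM 9 were lower and 1 was higher, and with hlOSM 9 were lower, against 4.44%, 15.8% and 19.8% of all genes called lower. With mOSM, 15.4% of all genes were called higher. The medians were -0.17, -0.32 and -0.42. The counts of 9 were the same on leaving out any library. The mLIF count of 5 was 1 without mLIF replicate 3, 2 without PBS replicate 3 or mLIF replicate 2, and 3 without PBS replicate 1, mLIF replicate 1 or hlOSM replicate 2 and with the replicate block. Cacna1c, the pore subunit of the L-type calcium channel, fell by 0.21 with mLIF, 0.58 with mOSM and 0.78 with hlOSM. Ryr2, the ryanodine receptor, was lower by less (-0.16, -0.30 and -0.32), and Trdn, Hrc and Dmd were lower with all 3 cytokines. Jph1, Jph2 and Casq2 were lower with both oncostatins. Bin1, which shapes T-tubules, was at 0.32 with mOSM (adjusted p = 0.0479) and at -0.01 with hlOSM (adjusted p = 0.943), and its call with mOSM was lost with the replicate block, without a filter on low values, under quantile rescaling, in a fit of the compared libraries alone and on leaving out any of 9 of the 12 libraries.

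Myoz2 binds calcineurin, and 11 of 12 genes of calcineurin and its NFAT targets and partners were tested. With mLIF 1 was lower, with mOSM 2 were lower and 2 higher, and with hlOSM 1 was lower and 1 higher. With mOSM these shares are near those of all genes, 15.8% lower and 15.4% higher. Of all genes, 4.44% were lower and 5.47% higher with mLIF, and 19.8% and 18.2% with hlOSM. Nfatc2 was lower with all 3 cytokines (-0.49, -0.69 and -0.79), but its mLIF call was lost with the replicate block, without a filter on low values, and without PBS replicate 2 or 3 or mLIF replicate 1 or 2. Rcan1, a feedback inhibitor of calcineurin, was higher with mOSM (0.23) and hlOSM (0.22). Nfatc4, at a mean of 11.3 normalized counts, was higher with mOSM (1.13), and Nfatc1 was lower with mOSM (-0.23). These lists were not tested as sets.

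**Figure D5:**
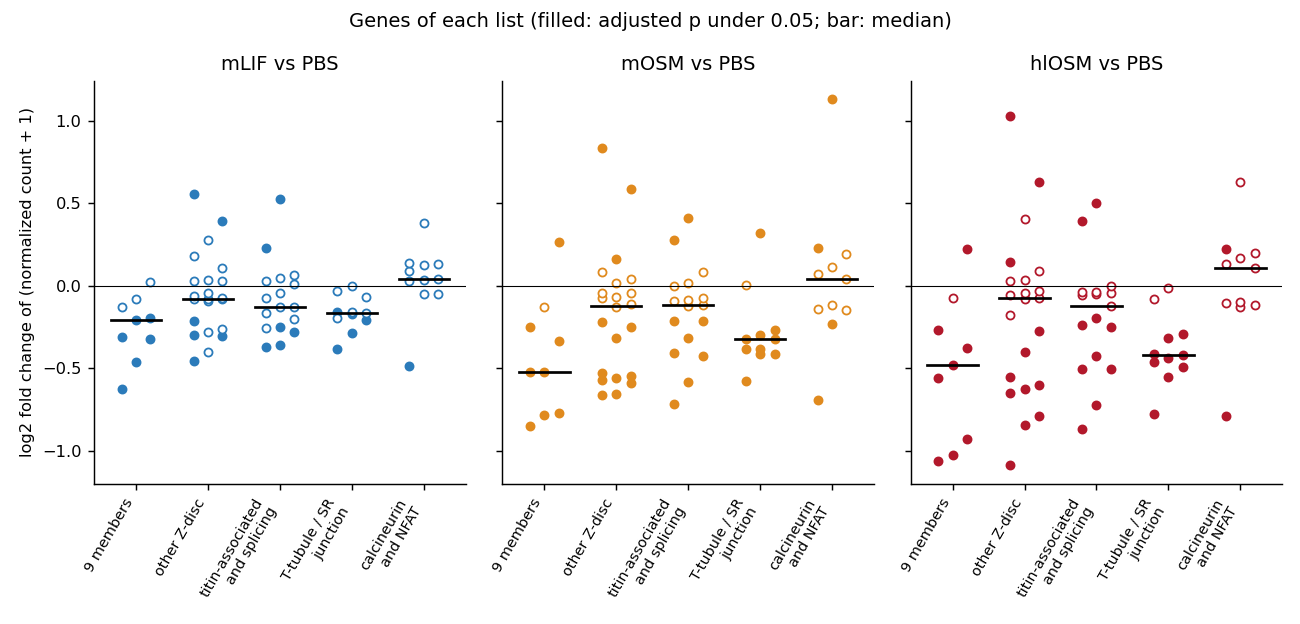
Log2 fold change of (normalized count + 1) against PBS (vertical axis) for each tested gene of the 9 members and of the 4 lists, in a panel for each cytokine. Filled points have an adjusted p under 0.05 and bars are medians. With hlOSM the median is -0.48 for the members, -0.08 for other Z-disc genes, -0.13 for titin-associated genes, -0.42 for the T-tubule junction and 0.11 for calcineurin and NFAT.

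Markers of cell types moved with the conditions. Of the 10 cardiomyocyte markers, 5 were lower under mLIF and 6 under each oncostatin, and their sum ran from 16944 to 19160, from 15570 to 18531 and from 16383 to 17016, all below the 19653 to 21643 of PBS. This list holds sarcomere genes such as Myh6 and Tnnt2 and is therefore not separate from the sarcomere. It also shares Ryr2 with the list of the T-tubule junction. Of 8 endothelial markers, 6 were higher with each oncostatin and 1 was lower with mLIF, and their sum, 1188 to 1262 with PBS, ran from 1201 to 1266 with mLIF, 1471 to 1700 with mOSM and 1477 to 1590 with hlOSM. The fibroblast sum ran from 2110 to 2251 with mLIF, 2459 to 2885 with mOSM and 2307 to 2540 with hlOSM. Of its 8 markers 1 was lower with mLIF, 3 were lower and 2 higher with mOSM, and 5 were lower and 3 higher with hlOSM. Of 7 smooth muscle and pericyte markers none was called with mLIF, 5 were lower with mOSM and 6 with hlOSM, with sums of 891 to 947, 677 to 729 and 617 to 637. The leukocyte sum, 285 to 325 with mLIF, was 346 to 393 with mOSM and 321 to 391 with hlOSM, and of its 5 tested markers 1 was higher with each cytokine and 1 was lower with hlOSM. The part that a shift in cell types has in the changes of the 9 genes was not tested.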

How the data were processed

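RNA was extracted from cardiomyocytes (RNeasy Micro per the labels, miRNeasy micro per the study's methods) and converted with a stranded total RNA kit (SMARTer Stranded Total RNA, HI Mammalian). The submitters' processing notes name FastQC, STAR 2.7.7a, featureCounts 1.6.5 of the Subread package and the genome build mm10. The deposited table of the series holds 1 value per gene and library, a score: normalized counts that the authors rounded to whole numbers. How they were normalized is not given in the sources used here, and with no raw counts the depth of a library is unknown, so no counting interval is given.

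Values were compared as log2(normalized count + 1) with limma 3.58.1 (R 4.3.3; linear model, moderated with a mean-variance trend, two-sided) over all 12 libraries, for genes with at least 10 normalized counts in at least 3 libraries. P-values were adjusted by Benjamini-Hochberg over all genes tested, at 0.05. Rounded normalized values were the reason for a log-scale test in place of a count model. The scripts were tested on simulated data with known changes. Exon and coding lengths are unions over GENCODE vM21 transcripts, and tables were made with Python 3.11.15 and pandas 2.3.3. Promoters are from RefSeq.

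The members and lists were chosen with earlier results of these data known. Named beside the 9 members were, per list, up to 8 genes called in most comparisons with PBS and any called against most of its list, and the 5 genes most like Ttn and the mean of the members. 1 gene that this rule picks is not reported here. Alternatives were other pseudocounts (0.1 and 5), filters (none, or 50), rescalings (trimmed mean, quantile), robust moderation, a fit of the compared libraries alone, a replicate block, an adjusted p of 0.01, a minimum change of 1.5-fold, and each library left out. The deposited table was used in full and no library was dropped from the values given.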

Additional observations from a re-analysis of the deposited data

How the results depend on the processing

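With a minimum change of 1.5-fold, 1 member was called lower under mLIF and 3 under each oncostatin against PBS, 0 for mOSM against mLIF and 1 for hlOSM against mLIF, and Csrp3 was no longer called higher anywhere, so those counts were 0. At an adjusted p of 0.01, 3 members were lower with mLIF against PBS, 2 with mOSM against mLIF and 4 with hlOSM against mLIF. At that threshold 0 were higher with hlOSM against mLIF. Leaving out 1 library gave 3 to 6 members lower with mLIF, 7 to 8 with mOSM and 7 to 7 with hlOSM against PBS, 2 to 7 for mOSM against mLIF, 4 to 7 for hlOSM against mLIF, 0 to 1 higher in either of these comparisons with mLIF, and 0 to 2 for the interaction. Of 756 leave-one-out values of single members, 33 lost a call, 9 gained one and 13 changed sign.

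The numbers tie libraries across conditions: over 6626 genes, the difference between replicates 3 and 1, averaged over the conditions, had an SD of 0.0019 on the log2 scale, against 0.089 with the numbers shifted in mLIF and hlOSM. Deviations whose sum over the conditions is about the same in every gene correlate negatively by construction (-0.52 to 0.02 over 18 pairs). The correlations therefore could not show whether the numbers pair the libraries. What made the average difference vary so little between genes was not tested. If a term for the number was taken out before deposit, p-values without the replicate block are too small. With the replicate block, 6, 7 and 7 members were lower against PBS, 2 for mOSM against mLIF, 4 for hlOSM against mLIF, and 0 higher for hlOSM against mLIF. The block took the calls of Nexn, Csrp3 and Cmya5 for hlOSM against mLIF (adjusted p = 0.0504, 0.0542 and 0.0669) and of Tcap for mOSM against mLIF (0.0584). It changed no other call of a member.

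Quantile rescaling sets the top gene of every library, here Ttn, to the same value, so its log2 fold change became 0 by construction. Under it Cmya5 with mLIF against PBS was 0.0028, and the interaction was -0.0038 for Ldb3 and -0.038 for Cmya5. On leaving out 1 library, signs turned only in differences that were not called. These log2 values ran from -0.00235 to 0.0557 for Csrp3 with mLIF against PBS, from -0.13 to 0.0247 for Myoz2 with mOSM and from -0.0442 to 0.0538 with hlOSM against mLIF, and from -0.00058 to 0.12 for the Ldb3 interaction. For hlOSM against mOSM they ran from -0.00125 to 0.0781 for Ttn, -0.0593 to 0.0408 for Actn2, -0.11 to 0.0959 for Nexn, -0.0174 to 0.14 for Myoz2, -0.0797 to 0.019 for Csrp3 and -0.11 to 0.0298 for Cmya5. The falls of Ldb3, Tcap and Fsd2 with each cytokine against PBS kept their call under all pseudocounts, filters, rescalings and leave-outs tried.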

Other observations

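Genes that neighbour the members on the chromosome were looked up after the values had been seen. Within 50 kb of a member lay 22 other tested genes, of which 5 were lower and 1 was higher under mLIF, 8 and 3 under mOSM, and 9 and 3 under hlOSM, each relative to PBS (limma, adjusted p under 0.05). Over all genes tested, 4.44%, 15.8% and 19.8% were lower and 5.47%, 15.4% and 18.2% higher, so the shares of higher neighbours are no larger than those of all genes. Near Fsd2, Whamm, which encodes an actin nucleation factor and lies 4.32 kb away on the other strand, had a mean of 277 normalized counts with PBS and 146 with hlOSM, and fell by 0.55 with mLIF, 0.67 with mOSM and 0.92 with hlOSM on the log2 scale. Gm37829, a transcript annotated as still to be checked by experiment, 0.79 kb from Fsd2 on the same strand, fell by 0.49, 0.72 and 0.93. Gm43185, which overlaps Nexn on the same strand, fell from a mean of 253 normalized counts with PBS to 132 with hlOSM (log2 fold changes of -0.44, -1.02 and -0.94 for mLIF, mOSM and hlOSM), where those of Nexn were -0.32, -0.52 and -0.56. Ccdc141, 27.4 kb from Ttn, was lower with all 3 cytokines (-0.26, -0.48 and -0.55), whereas Zdhhc13, 2.96 kb from Csrp3, was higher with all 3 (0.50, 0.30 and 0.59), and so was Csrp3 with both oncostatins. Usp53, beside Myoz2, was higher with mOSM (0.36) and hlOSM (0.30), while Synpo2 on its other side was lower. Whether reads of a member reached the counts of a neighbour was not tested.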
